A study of Mus musculus with 4 samples.

Results

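Keratins are the intermediate filament proteins of epithelial cells. A filament is built from pairs of a type I and a type II keratin, and the pair a cell makes follows the kind of epithelium it belongs to. Krt8 and Krt18, with Krt7 and Krt19, are the keratins of simple epithelia, and they are made by the epithelium of the fetal lung and by the mesothelium that covers it. Krt5, with Krt14 and Krt15, marks the basal layer of stratified epithelia and the basal cells of the airway, while Krt4 and Krt13 are the pair of the upper layers of non-cornified squamous epithelia such as that of the oesophagus.

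The 9 genes described here were taken by symbol, with every probe set annotated to them on either array design. They comprised 4 simple keratins (Krt7, Krt8, Krt18 and Krt19) and 5 squamous or basal keratins (Krt4, Krt5, Krt13, Krt14 and Krt15), out of 18193 genes with a probe set of their own. They had 16 probe sets, 14 on MOE430A and 2 on MOE430B. One further probe set was annotated to a member together with another gene and was left out. The set was selected on the signals of these same arrays, with the ratio of double knockout to wild type known, so those ratios are descriptions here.

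The samples were whole fetal lungs of mouse embryos at E18.5, shortly before birth. Wild type lungs were BALB/c. The other group was BALB/c null for Myf5 and Myod1, a pair of transcription factors that skeletal muscle needs to form, and the series asks what part skeletal muscle has in lung development. Biotinylated cRNA, made from 6 µg of RNA, was read on the Affymetrix designs MOE430A (22690 probe sets) and MOE430B (22575 probe sets). Each genotype had 1 array per design, 4 in all. Nothing in the labels tells how many embryos gave an RNA, or if both arrays of a genotype received the same one.

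There is no replicate, so no test between the genotypes was possible and the number of arrays limits every value. As a yardstick, 100 probe sets were present on MOE430A and MOE430B alike. From their differences the SD of a single log2 ratio was 0.24, with a mean offset of -0.22 on MOE430B. This SD does not measure the spread between embryos, since both designs may have received the same RNA. Probe sets of 1 gene spread more, with a pooled SD of 0.37 on MOE430A and 0.71 on MOE430B. The check of the labels was mixed. Myf5 read below the floor of reliable signal on both MOE430A arrays, whereas a Myod1 probe set gave 85.0 under the wild type label and 1081 under the double knockout label. The position of these probe sets relative to the deletions is not stated in the labels or files, so every direction below rests on the labels. Xist, the RNA of the inactive X chromosome, was 3.64-fold and 2.76-fold lower under the double knockout label by its 2 passing probe sets, and sex, which the labels do not give, cannot be told apart from genotype. In bulk tissue, fewer cells of a type and less RNA per cell cannot be told apart. Among genes that define lung epithelium, Sftpc, the surfactant protein of type II cells, was strong in both genotypes. It read 78525 in wild type and 113337 in double knockout (log2 ratio 0.53), while its second passing probe set had a log2 ratio of 1.98. Nkx2-1, another of these genes, read 735 and 1218, the wild type signal being under the median of MOE430A.

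Below, signals are in arbitrary MAS5 units, the double knockout after rescaling. A filter kept probe sets whose higher signal was at least the median signal of that design (787 for MOE430A, 855 for MOE430B). A floor at the 25th percentile (284 and 278) replaced dimmer signals, and a ratio with 1 signal under it is a lower bound. Levels of different probe sets are not compared.

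The RefSeq table of promoters (GRCm38.p6) held 6 of the 9 genes. Krt4, Krt15 and Krt19 were not among them. The 250 bases before the start are printed for Krt13 and Krt5, of the squamous and basal group, and for Krt8 and Krt18, the filament partners of simple epithelia. Capitals mark a TATA-like run (ATAAANG on the strand of the gene) and CACCC boxes (CCACCC on either strand), the letters that factors of the KLF family are known to read. The motifs were chosen after the sequences were seen, and the searched motifs do not overlap in these windows.
Krt13, chr11:100121567-100121816, minus strand: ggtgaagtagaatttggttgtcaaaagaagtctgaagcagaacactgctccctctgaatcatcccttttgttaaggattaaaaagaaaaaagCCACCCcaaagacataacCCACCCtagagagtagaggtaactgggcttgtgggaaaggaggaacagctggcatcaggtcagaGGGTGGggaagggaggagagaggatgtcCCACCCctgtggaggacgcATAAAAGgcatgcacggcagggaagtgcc
Krt5, chr15:101712906-101713155, minus strand: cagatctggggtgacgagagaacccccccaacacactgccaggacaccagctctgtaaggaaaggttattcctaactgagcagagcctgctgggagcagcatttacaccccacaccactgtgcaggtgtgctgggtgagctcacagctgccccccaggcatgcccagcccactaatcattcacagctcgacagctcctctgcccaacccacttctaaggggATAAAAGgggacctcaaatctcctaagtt
Krt8, chr15:102004343-102004592, minus strand: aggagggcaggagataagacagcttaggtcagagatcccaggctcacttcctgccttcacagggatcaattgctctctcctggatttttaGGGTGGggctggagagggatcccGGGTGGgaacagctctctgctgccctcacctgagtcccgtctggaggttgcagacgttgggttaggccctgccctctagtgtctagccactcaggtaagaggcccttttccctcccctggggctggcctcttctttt
Krt18, chr15:102027966-102028215, plus strand: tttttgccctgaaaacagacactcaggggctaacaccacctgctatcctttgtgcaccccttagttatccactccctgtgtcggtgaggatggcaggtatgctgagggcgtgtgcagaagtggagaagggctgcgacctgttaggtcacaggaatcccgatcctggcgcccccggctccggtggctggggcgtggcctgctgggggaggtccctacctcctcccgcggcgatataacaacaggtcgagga

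The TATA-like run began 29 bases before the start in both Krt13 and Krt5. In the windows not printed, it began 7 bases before the start in the simple keratin Krt7 and was absent from the basal keratin Krt14. Krt8 and Krt18 also lacked it. The run began 20 to 40 bases before the start in 1.54% of the 32851 promoters of the table, and lay anywhere in the 250 bases in 6.96%. Krt13 held 4 CACCC boxes, Krt8 held 2 and Krt14 held 1, while Krt5, Krt18 and Krt7 held none. At least 1 CACCC box was present in 28.1% of all promoters and at least 4 in 0.441%. A GC box (GGGCGG on either strand) was also searched. Krt7 held 4 and the other members in the promoter table held none, where 32.7% of all promoters held at least 1. The table lists a second start for Krt13, whose window held none of these motifs. These matches describe letters and say nothing of what binds there.

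The largest ratio among the members was that of Krt4, the type II keratin of the upper layers of squamous epithelium. On MOE430A its probe set 1418735_at read 117 in wild type and 2525 in double knockout, at least 8.90-fold higher. On MOE430B, probe set 1438394_x_at read 3053 in wild type and 8963 in double knockout, 2.94-fold higher (log2 ratio 1.55). Both designs therefore read Krt4 higher in the double knockout. Wild type was under the floor of MOE430A and above the filter of MOE430B. The designs were scaled apart, and shared probe sets read a median 3.95-fold higher on MOE430B, so these wild type levels are not compared. The suffix of the MOE430B probe set marks possible cross-hybridisation.

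Krt13, the type I partner of Krt4, was read in opposite directions. On MOE430A, probe set 1422454_at read 158 in wild type and 1116 in double knockout, at least 3.93-fold higher. On MOE430B, probe set 1441863_x_at read 864 in wild type and 580.3 in double knockout, 1.49-fold lower (log2 ratio -0.57). One more Krt13 probe set, 1437344_x_at on MOE430A, read 30.7 and 17.5, both under the floor. The direction of Krt13 thus differed between the designs.

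Krt15, a type I keratin of basal cells, was read by 1 probe set. Probe set 1422667_at read 1244 in wild type and 2534 in double knockout, 2.04-fold higher (log2 ratio 1.03). Both signals were above the filter, so this ratio did not depend on the floor.

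The classical basal pair differed less. Krt5, the type II keratin of basal cells, read 619 in wild type and 856 in double knockout by probe set 1424096_at, 1.38-fold higher (log2 ratio 0.47). Krt14, its type I partner, passed with none of its 3 probe sets. Probe set 1455573_at read 543 and 578, above the floor but under the filter (log2 ratio 0.09), and 1460347_at (99.6 and 85.7) and 1423935_x_at (81.9 and 60.4) were under the floor in both arrays. Krt14 was thus dim in both genotypes, with a ratio from 1 probe set.

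**Figure D1:**
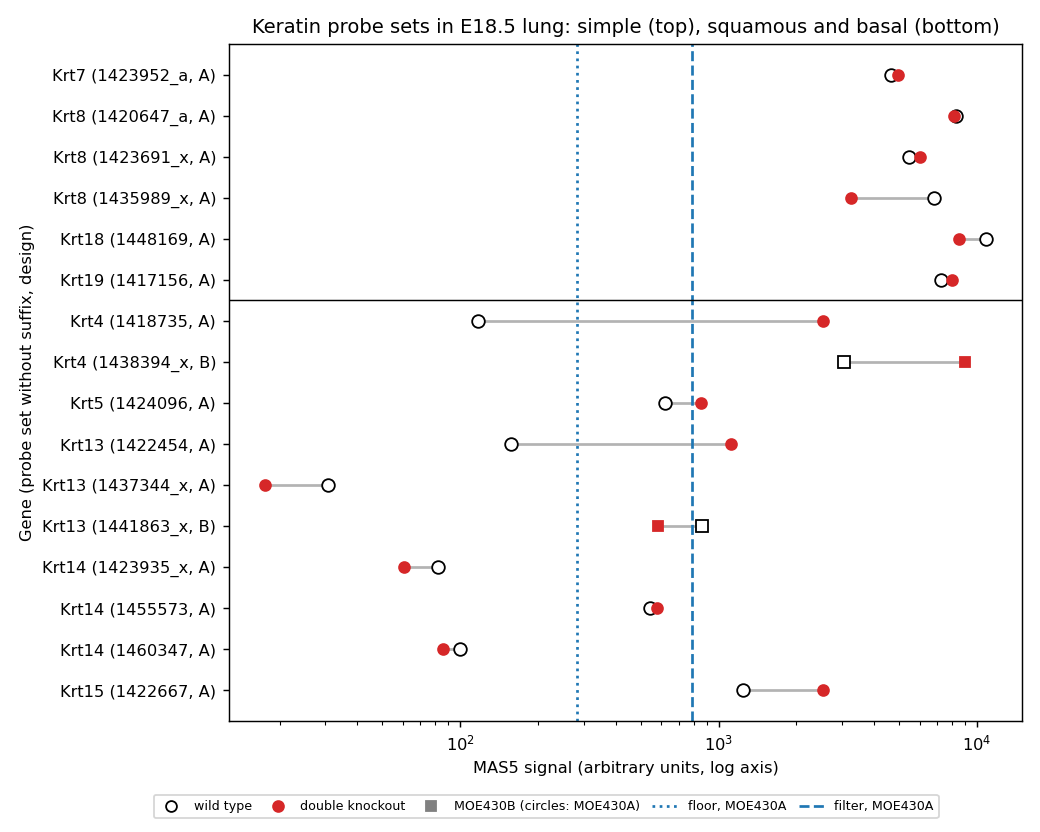
MAS5 signal (log axis) of the 16 keratin probe sets in wild type (open) and double knockout (red), with circles for MOE430A, squares for MOE430B, and lines at the MOE430A floor of 284 (dotted) and filter of 787 (dashed). The 6 simple keratin probe sets lie right of the filter in both genotypes, whereas Krt4 and Krt13 on MOE430A cross from under the floor in wild type to above the filter in double knockout.

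The simple keratins were strong in both genotypes and mostly differed little. Krt7, a type II keratin of ductal and glandular epithelium, read 4644 in wild type and 4938 in double knockout, 1.06-fold higher. Krt19, a type I keratin that lacks the usual tail domain, read 7229.6 and 8023, 1.11-fold higher. Krt18, the type I partner of Krt8, read 10866 and 8531, 1.27-fold lower (log2 ratio -0.35). The ratios of Krt7 and Krt19 were smaller than the SD of 0.24 of the shared probe sets. That of Krt18 was larger, but within the SD of 0.37 of probe sets of 1 gene on MOE430A.

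Krt8, the type II keratin of simple epithelia, had 3 probe sets on MOE430A that did not read alike. Probe set 1420647_a_at read 8279.8 in wild type and 8112 in double knockout, 1.02-fold lower. Probe set 1423691_x_at read 5471 and 6014, 1.10-fold higher, and 1435989_x_at read 6817 and 3245, 2.10-fold lower (log2 ratio -1.07). The 2.10-fold difference thus rested on a single probe set. Its suffix marks possible cross-hybridisation, as does that of 1423691_x_at.

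Counted by probe set, the groups stood as follows. Of 10 squamous and basal probe sets 6 passed, and 4 of them (both of Krt4, and 1 each of Krt13 and Krt15) were at least 2-fold higher in double knockout and 0 at least 2-fold lower. Of all passing probe sets, 1.8% were that much higher on MOE430A and 9.7% on MOE430B, and 8% were that much lower on MOE430B. All 6 simple keratin probe sets passed, and 1 (1435989_x_at of Krt8) was at least 2-fold lower, against 2.05% of all on MOE430A. The members were proposed from this contrast, so nothing is read from these counts.

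How the probe sets passed also differs between the groups. The simple keratin probe sets passed in both arrays, but of the 6 squamous and basal probe sets that passed, 3 (Krt4, Krt5 and Krt13 on MOE430A) did so only through the double knockout and 1 (Krt13 on MOE430B) only through wild type. A MOE430A probe set that passes with the other signal under the floor is at least 2.77-fold different by construction. Among all MOE430A probe sets 48 passed with wild type under the floor and 65 with double knockout under it. With both signals at the filter, Krt15 (MOE430A) and Krt4 (MOE430B) remained of the squamous and basal probe sets. Of all such probe sets, 0.499% were at least 2-fold higher on MOE430A and 2% on MOE430B.

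**Figure D2:**
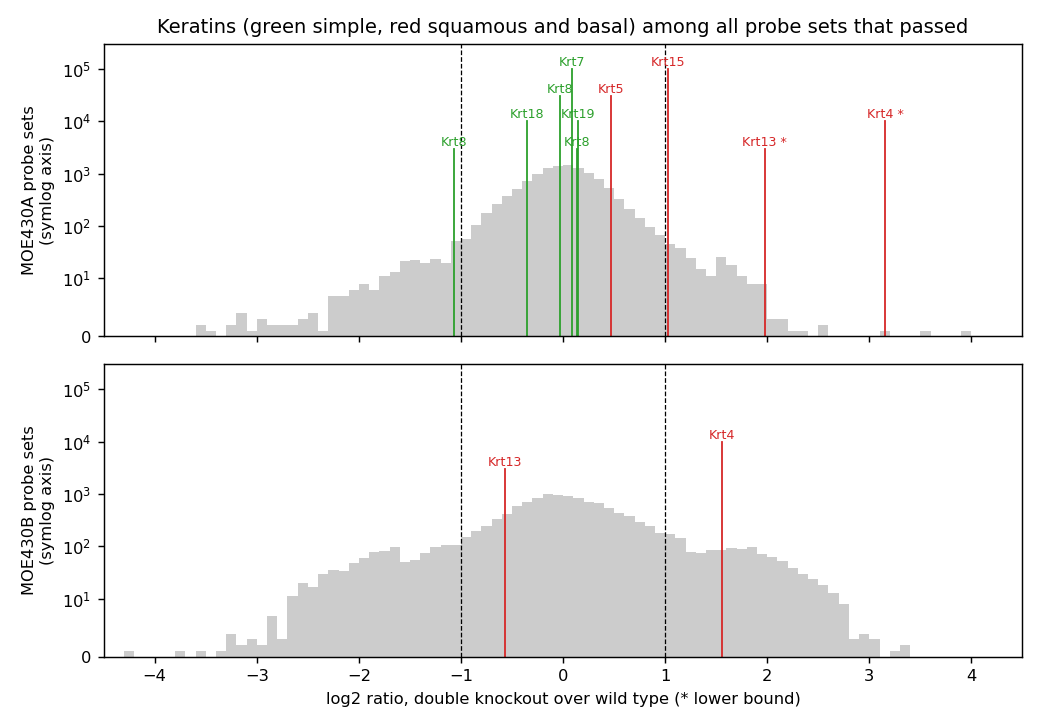
Histograms of the log2 ratio of double knockout over wild type for the 12203 probe sets passing on MOE430A (top) and the 12892 on MOE430B (bottom), count on a symlog axis, with simple keratins in green, squamous and basal keratins in red, dashed lines at 2-fold and an asterisk for lower bounds. Krt15, Krt13 and Krt4 on MOE430A lie to the right of the line at 1, Krt4 also on MOE430B, while Krt13 on MOE430B lies at -0.57.

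With 1 probe set per gene, taken from MOE430A where one passed there, the simple keratins had a median log2 ratio of 0.03 over 4 genes. The squamous and basal keratins had 1.50 over the 4 that passed, with Krt4 and Krt13 at their bounds, a difference of 1.47. Over all 5, without the filter, the squamous and basal median was 1.03. The median was 0.49 over Krt4 and Krt13 on MOE430B alone, where Krt13 turned. For all 12559 genes it was -0.01, and 3.89% of them were past 2-fold upwards and 3.63% downwards.

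The members lie in the keratin gene clusters, 27 keratin genes on chromosome 11 and 26 on chromosome 15, the second holding the type II genes and Krt18. In the RefSeq order Krt13, Krt15 and Krt19 follow each other on chromosome 11. Their ratios along that order were at least 3.93-fold, 2.04-fold and 1.11-fold higher by the MOE430A probe sets. This order of ratios rested on 1 Krt13 probe set. Krt13 had a log2 ratio of -0.57 on MOE430B and 0.70 with the median over probe sets, both under the 1.03 of Krt15. On chromosome 15, Krt4 lies between Krt76 and Krt79. Krt76, a keratin of oral epithelium, read 1128 and 1265 on MOE430B (log2 ratio 0.17), and Krt79 did not pass, with 746.7 and 742. Neither neighbour had a ratio near that of Krt4. Krt8 and Krt18 are adjacent at the end of the same cluster.

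**Figure D3:**
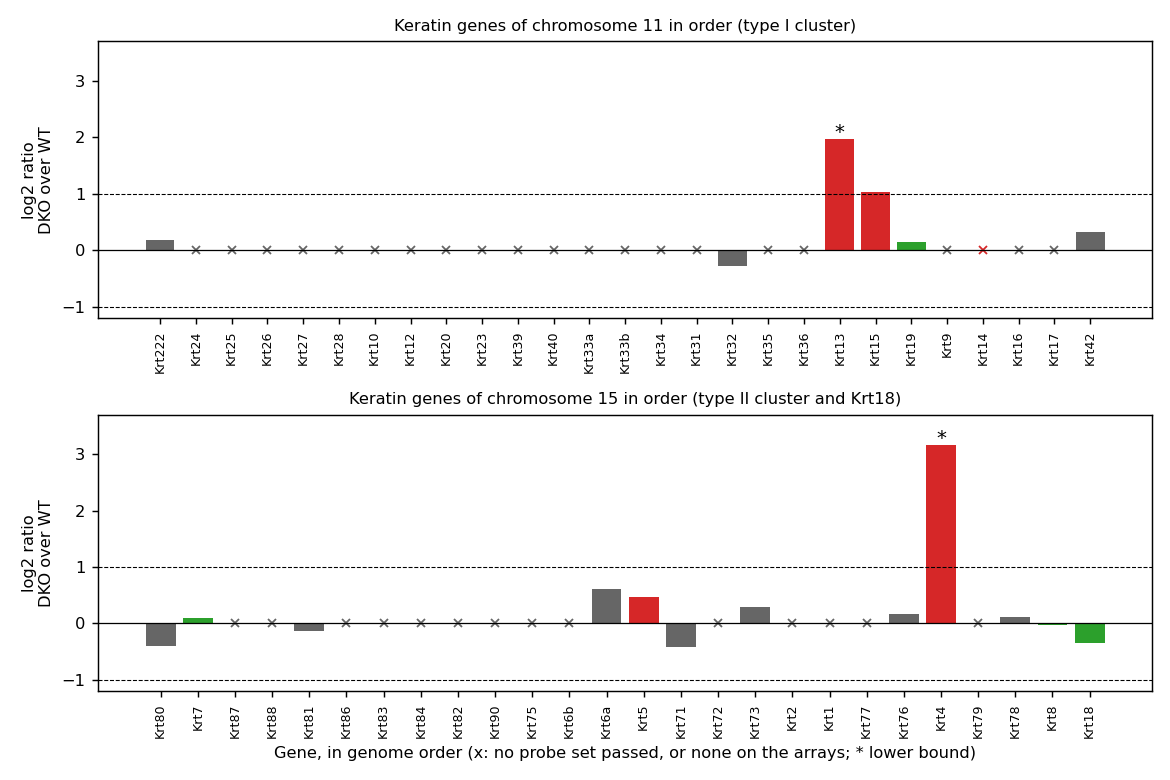
Log2 ratio of double knockout over wild type for keratin genes in genome order on chromosome 11 (top) and chromosome 15 (bottom), with squamous and basal members in red, simple members in green, other keratins in grey, lower bounds marked by asterisks and crosses for genes with no passing probe set. By the MOE430A probe sets shown, the adjacent genes Krt13, Krt15 and Krt19 step down from 1.98 to 0.15, but Krt13 was at -0.57 on MOE430B. Krt4 stands at 3.15 with no neighbour past the 2-fold lines.

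Of 39 other keratin genes on the arrays 10 passed, and 0 were at least 2-fold higher or lower by the probe set that represents them. Their median log2 ratio was 0.14. Krt6a, a keratin of the suprabasal layers of stratified epithelium that neighbours Krt5, had the highest ratio, with 666 in wild type and 1016 in double knockout (log2 ratio 0.61). Its second passing probe set read 90.4 and 892, at least 3.14-fold higher, and its other probe set was under the floor in both. Both passing probe sets of Krt6a passed only through the double knockout. Krt71, a keratin of the hair follicle sheath, had the lowest, with 955 and 712 (log2 ratio -0.42), and passed only through wild type. The probe sets of Krt42 disagreed, with log2 ratios of 0.33 and -1.19. Krt10 and Krt1, the pair of cornifying epidermis, and Krt16 and Krt17 did not pass.

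Desmosomes and hemidesmosomes are the junctions to which keratin filaments attach. Of 15 desmosome genes on the arrays 9 passed and 0 were at least 2-fold higher or lower, where 3.89% and 3.63% of all genes were. The median log2 ratio was 0.08. Pkp3, a plakophilin of the desmosomal plaque, read 647 and 1154 (log2 ratio 0.84), and passed only through the double knockout. Jup, plakoglobin, had -0.32. The desmosomal cadherins of stratified epithelium, Dsg1a, Dsg1b, Dsc1 and Dsc3, did not pass. Of 8 hemidesmosome genes on the arrays 6 passed, 5 of them with ratios below 0, with a median of -0.28. They ran from Itga6, the laminin-binding integrin chain, at -0.69 to Plec, plectin, at 0.04. The 5 passing probe sets of Cd151 disagreed, from -0.29, which represents it, to 1.06. Those of Plec ran from 0.04 to 0.50. Col17a1 and Itgb4, which define the hemidesmosome of basal cells, did not pass.

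Other genes of stratified epithelium were examined next. Of 19 genes of the cornified envelope on the arrays 8 passed, 0 at least 2-fold different, with a median of 0.37, but 0.18 with the floor at the median and 0 over all 19 without a filter. Ivl, involucrin, read 491 and 866 on MOE430B (log2 ratio 0.82), and passed only through the double knockout, just over the filter. Lor, loricrin, had -0.54. Of 12 regulators of stratification on the arrays 4 passed, with a median of -0.08. Tfap2a, an AP-2 factor, was 2-fold higher, with 489 and 992 (log2 ratio 1.02), and passed only through the double knockout. Trp63, the master regulator of stratified epithelium, did not pass with any of 4 probe sets, the highest signals being 514 in wild type and 519 in double knockout.

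Markers of cells that make squamous or basal keratins were set beside these values. Of 8 airway basal cell genes 4 passed, with a median of 0.31, from Bcam (-0.05) to Cdh3 (0.70). Cdh3, with 595 and 965 on MOE430B, passed only through the double knockout. The median was -0.03 over all 8 without a filter and -0.01 with the highest signal over both designs. Their summed MOE430A signal was 16903 in wild type and 16904 in double knockout, of which Bcam alone gave 13589.6 and 13110.5. Trp63, Ngfr, Aqp3 and Sfn did not pass. Of 11 oesophageal genes on the arrays 5 passed, with a median of 0.27, from Pax9 (-0.34) to Cnfn (0.39). The median was 0 over all 11 without a filter and -0.04 with the highest signal over both designs. Pax9, with 866 and 686 on MOE430B, passed only through wild type. The summed signal of the 8 read on MOE430A was 4139 in wild type and 4834 in double knockout. Most of it came from Upk1a (1881 and 2266) and Tgm3 (806 and 1023). Ly6d, a surface protein of squamous epithelium, read 111 and 324, under the filter. Also under the filter, Sprr3 read 518 and 364, Scel 413 and 383 on MOE430A, and Spink5 362 and 408 on MOE430B. Lypd3 and Rhov were under the floor in both arrays. A part of trachea or oesophagus in the dissected tissue was not tested.

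The thymus also holds cells that make Krt5, Krt8 and Krt14. Of 10 thymic epithelial genes 6 passed, all with ratios below 0 and 3 at least 2-fold lower, against 3.63% of all genes, with a median of -1.47. Those 3 passed only through wild type. The median was -0.28 over all 10 without a filter, -0.71 with the highest signal over both designs (2 at least 2-fold lower), and -0.02 over the 3 genes with both signals at the filter (0 at least 2-fold lower). Ccl25, a thymic chemokine, was at least 8.61-fold lower by one probe set (2443 and 33.5), although another of its probe sets had a log2 ratio of 0.57. Prss16, a thymic protease, read 4466 and 661, 6.76-fold lower, and Tbata was 4.12-fold lower. The summed signal of the 9 read on MOE430A was 11714 in wild type and 3224 in double knockout, and Aire, Fezf2, Ly75 and Pax1 were under the floor in both arrays. Of 12 thymocyte genes on the arrays 10 passed and 9 were at least 2-fold lower, led by Rag1 (at least 11.7-fold), Cd3d, Cd8b1 and Cd3g. Those 9 passed only through wild type by the probe sets that represent them. The thymocyte median was -2.97, but -1.75 with the floor at the median (7 at least 2-fold lower). With both signals at the filter 1 gene was left, at -0.30 (0 at least 2-fold lower). The part of thymic epithelium and thymocytes in the keratin values was not tested.

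Lists of the epithelia that make simple keratins were set beside them. Of 18 genes of epithelial adhesion and identity on the arrays 17 passed, 0 at least 2-fold different, with a median of 0.11. They ranged from Ap1m2, a sorting adaptor of polarised cells, at -0.80 to Cldn7, a claudin, at 0.67. All 12 lung epithelial genes on the arrays passed, 9 with ratios above 0, with a median of 0.42. They ran from Foxj1, the regulator of ciliated cells, at -0.52 to Scgb1a1, the club cell secretory protein, at 0.77. The median was 0.29 with quantile normalization and 0.31 with a loess curve removed. With the median over probe sets it was 0.32, and 1 of the 12 was at least 2-fold higher, against 483 of all 12559 genes. Of 12 mesothelial genes 5 passed with a median of 0.03, from Lrrn4 at -0.48 to Muc16, a membrane mucin, at 0.64.

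**Figure D4:**
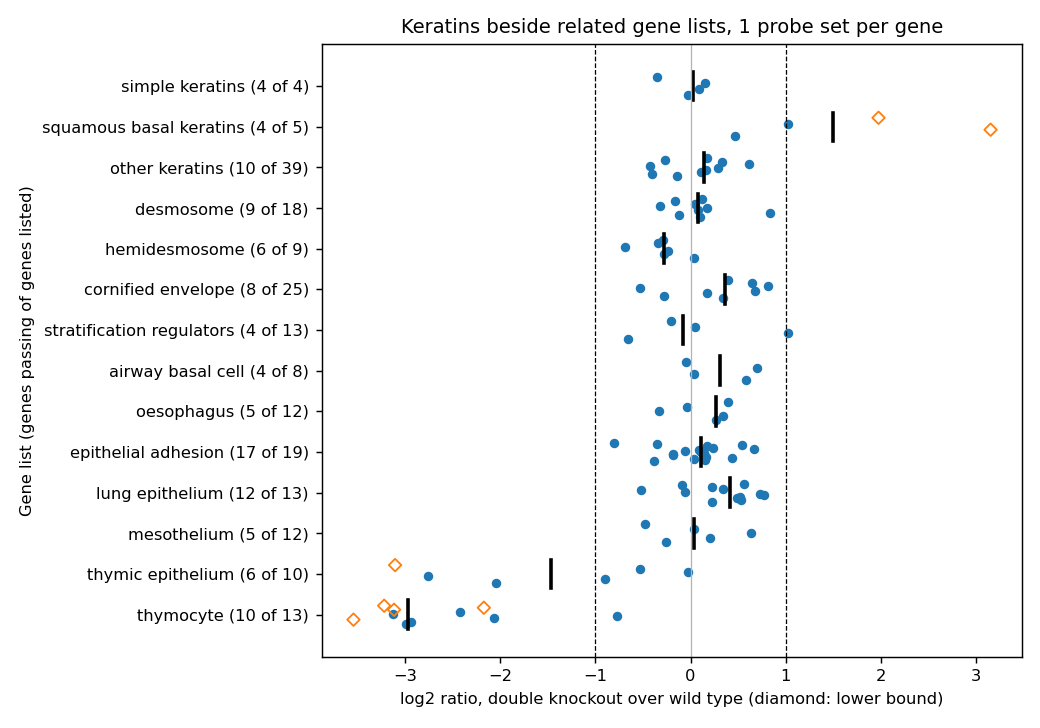
Log2 ratio of double knockout over wild type for each passing gene of 14 lists, with lower bounds as diamonds, list medians as black bars and dashed lines at 2-fold. The simple keratins gather at 0.03, and 3 squamous and basal keratins lie at or beyond the 2-fold line. Thymic epithelial and thymocyte genes lie to the left, with medians of -1.47 and -2.97. Those of them past 2-fold passed only through wild type by the probe sets shown.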

How the data were processed

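The authors deposited 1 intensity per probe set on a linear scale. They used MAS5, per the submitters' processing notes, which state neither settings nor detection calls. The 2% trimmed mean was 1500 on each array, so each array was scaled on its own, which assumes equal total signal, and ratios were formed only within a design. The shared probe sets read a median 3.95-fold higher on MOE430B.

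After removal of 64 control probe sets per design, the double knockout array was divided by the median ratio of passing probe sets (1.004 and 1.008), and filter and floor were then applied as given above. Genes were named through GEO's platform annotation, and gene order and promoters came from RefSeq GRCm38.p6. Each gene was represented by its brightest passing MOE430A probe set (mean log2 signal), otherwise by that on MOE430B. All member probe sets are given. Of each other list, up to 4 genes past 2-fold were named, otherwise the highest and the lowest. Names outside this rule (markers that did not pass, neighbours, second probe sets, Sftpc, Nkx2-1, Xist and targeted genes) were chosen after their values were seen. Members and lists were chosen with earlier results of these data known.

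The steps were tested on simulated arrays, with changes planted only in probe sets that were bright in wild type. Dim signals, such as those of Krt4 and Krt13 in wild type on MOE430A, were therefore not covered. Alternatives covered scaling, floor, filter, probe set choice, suffixes and design, and a filter on the lower signal was chosen after seeing the data. Scripts ran in python 3.11.15, pandas 2.3.3 and statsmodels 0.14.6.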

Additional observations from a re-analysis of the deposited data

How the results depend on the processing

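The scaling alternatives (signals as deposited, quantile normalization, a loess curve removed) moved no keratin value by more than the SD of the shared probe sets. The simple keratins, and Krt15 at a log2 ratio of 1.03 to 1.04, stayed within it under each alternative that gave a value. The squamous and basal median of 1.50, and its difference of 1.47 from the simple keratins, rested on the floor and on the choice of probe set. With the floor at the 10th percentile they were 1.93 and 1.90, with it at the median 0.77 and 0.74, and with no filter 1.03 and 0.998. A 75th percentile filter, which leaves Krt4 and Krt15, gave 2.09 and 2.06. With the highest signal over both designs they were 0.75 and 0.72, and with the median over probe sets 0.86 and 0.83. On MOE430B alone the median was 0.49 and 1 keratin was at least 2-fold different, where no simple keratin is read. Krt13 turned to -0.57 on MOE430B alone and with the highest signal over both designs, and lost its 2-fold call with the floor at the median (0.50) and with the median over probe sets (0.70). Krt4 stayed above 0 throughout, from 1.55 to 4.43. Krt5 moved from 0.47 to 0.12 with the floor at the median. With the filter on the lower signal, Krt5 and Krt13 had no value. No paired analysis was possible because each group held 1 array. Replicates could not be left out for the same reason. Dim signals limit Krt13, Krt14 and the wild type values of Krt4 and Krt5 on MOE430A.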
